A study of Saccharomyces cerevisiae with 12 samples.

Results

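The 10 histone genes of budding yeast were examined in mRNA-Seq of polysomal and total mRNA. They were taken from a list of systematic names and not by their values, and they are 10 of the 7126 genes in the count tables. The 8 core histone genes form 4 pairs of paralogs: HTA1 (YDR225W) and HTA2 (YBL003C) for H2A, HTB1 (YDR224C) and HTB2 (YBL002W) for H2B, HHT1 (YBR010W) and HHT2 (YNL031C) for H3, and HHF1 (YBR009C) and HHF2 (YNL030W) for H4. HTZ1 (YOL012C) encodes the H2A variant H2A.Z, and HHO1 (YPL127C) encodes the linker histone H1. The core genes lie on chromosomes II, IV and XIV, HTZ1 on chromosome XV and HHO1 on chromosome XVI. Each is a single exon without an overlapping coding gene in the R64 annotation.

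The 4 conditions had 3 libraries each: polysomal and total mRNA of the ΔES27Lb strain and polysomal and total mRNA of wildtype, which makes 12 libraries. The polysomal and the total library of a strain with the same replicate number were taken as 1 culture, which gives 6 cultures; the sources used here do not state whether these were grown separately. Both strains derive from the haploid strain yJD1045, a MATa strain in the NOY891 background with the alleles his3-11, leu2-3, ura3-1, ade2-1, trp1 and can1-100, in which the chromosomal rDNA is deleted (rdn1ΔΔ::HIS3). The only rRNA comes from the 2μ plasmid pJD694, where a repressible TET promoter read by RNA polymerase II drives the 35S operon and a point mutation in the 18S rRNA gives resistance to hygromycin B, so the wildtype strain shares these alterations. In ΔES27Lb the plasmid lacks the b-arm of expansion segment ES27L of the 25S rRNA. Cells were grown in YPD, which by the methods was kept with hygromycin B, to an OD600 of 0.8, and polysomal mRNA came from the pooled polysomal fractions of sucrose gradients. As a check of the labelled mating type, the a-specific genes STE2, STE6, MFA1, MFA2, BAR1 and AGA2 had at least 180 counts in every library, and of the alpha-specific genes MF(ALPHA)2 had at most 4 and MF(ALPHA)1 at most 41. STE3 reached 116 counts and SAG1 826. The deleted rRNA segment cannot be seen in counts per gene.

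Histones package DNA into nucleosomes, each an octamer of H2A, H2B, H3 and H4. In yeast the core histone genes are arranged as divergent pairs, H2A beside H2B and H3 beside H4, and are transcribed mainly in late G1 and S phase. Unlike most core histone mRNAs of animals, those of yeast carry poly(A) tails, so they are retained by oligo(dT) enrichment. HTZ1 lies outside this arrangement and is not confined to S phase.

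Library depth ranged between 15050764 and 21532842 counts. The histone genes held 0.659% to 1.07% of them, so that counting error was small against the spread between replicates. Levels are given as CPM, which are counts over library size after TMM scaling (factors of 0.746 to 1.287). P/T, the polysomal level over the total level, is therefore relative to the bulk of mRNAs, with a median log2 over all 6003 genes tested of -0.06 in either strain. All 10 histone genes passed the filter on low counts. Libraries differed in how abundance was spread over coding lengths: the rank correlation between a gene's deviation from its group mean and the length of its coding sequence (CDS) lay between -0.56 (replicate 3 of ΔES27Lb polysomes) and 0.60 (replicate 2 of ΔES27Lb total mRNA). The histone CDS are short, between 312 nt for the H4 genes and 777 nt for HHO1, and values with an offset for CDS length are given with the comparisons.

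The paralogs have to be told apart by their sequence before their counts can be compared. Within each pair the CDS have the same length, and HHF1 and HHF2 are the closest, with 8 differences over 312 bases (97.4% identity) and no difference in the protein. HHT1 and HHT2 differ at 28 bases and at no residue. HTA1 and HTA2 differ at 25 bases and 2 residues, and HTB1 and HTB2 at 48 bases and 4 residues, which is 87.9% identity. The ends of the CDS of the most and the least divergent pair are shown to make these differences visible, as the last 60 bases with the stop codon, in R64 (RefSeq, strain S288C), with capitals for the bases that differ between the paralogs.
HTB1: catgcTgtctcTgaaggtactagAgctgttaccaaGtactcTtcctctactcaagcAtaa
HTB2: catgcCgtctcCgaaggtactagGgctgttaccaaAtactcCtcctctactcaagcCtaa
HHF1: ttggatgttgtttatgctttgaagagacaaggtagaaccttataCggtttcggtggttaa
HHF2: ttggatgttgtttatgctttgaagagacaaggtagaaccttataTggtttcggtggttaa
The H2B genes have 6 differing bases in this stretch and the H4 genes 1. Of all windows of 50 bases in a CDS, 21.3% occurred more than once in the genome for each of HHF1 and HHF2, 12.2% for each of HHT1 and HHT2, 4.57% for each of HTA1 and HTA2 and 0% for HTB1, HTB2, HTZ1 and HHO1. With windows of 75 bases this was left at 2.52% for HHF1 and HHF2 and 0% for the other genes, and with 100 bases at 0% for all. The read length and the treatment of reads with several matches are not given in the sources used here, so the split between HHF1 and HHF2 is the least certain. The reads were aligned to the strain BY4742, whose assembly was not used here.

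The divergent partners share the DNA between their start codons, which measures 817 bases between HTB1 and HTA1, 699 between HTA2 and HTB2, 646 between HHF1 and HHT1 and 676 between HHT2 and HHF2. The element TTCCNNNNNNTTCNC, known as the binding site of the histone gene activator Spt10, was searched on both strands of these regions. It is shown because it is a feature that the core genes share, with its fixed bases in capitals and 7 bases on each side, 5′ to 3′ on the strand that carries it.
HTB1-HTA1, first site: agcgctgTTCCaaaattTTCgCctcactg
HTB1-HTA1, second site: cactccaTTCCaatagcTTCgCacagtga
HTA2-HTB2: taaggtgTTCCcattatTTCtCaaagtga
HHF1-HHT1: aaaactgTTCCgagcgcTTCtCcccataa
HHT2-HHF2: ttgtccgTTCCgagcacTTCgCattaagc
The HTB1-HTA1 region held the element at 2 places, 401 and 378 bases before the start codon of HTA1, and each other region held it once, 366 bases before HHF2, 369 before HTB2 and 372 before HHT1. It was present in the 687 bases before the start codon of 8 of the 10 histone genes, all 8 core genes, and in neither HTZ1 nor HHO1. Among all 6005 coding genes with a full window of this length, 3.98% held it. Divergent partners share their region, so each site was counted for both partners. The element was chosen as a known feature of the core genes, so its presence there is a description and not a test. The match describes these letters in R64 and was not tested for binding.

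The core histone genes were far more abundant per length of CDS than the variant and linker genes. In total mRNA of ΔES27Lb, HHF2 averaged 4054 ± 1330 CPM per kb and HTB2, the lowest core gene, 1350 ± 455 (SD, n = 3). HHO1 averaged 262 ± 124 CPM per kb and HTZ1 201 ± 50.7. In wildtype total mRNA, HHF2 averaged 3215 ± 1055 CPM per kb, HTB2 1109 ± 510, HHO1 199 ± 46.3 and HTZ1 168 ± 68.2. The order in wildtype total mRNA was HHF2, HHF1, HHT2, HTB1, HTA1, HHT1, HTA2, HTB2, HHO1 and HTZ1. It was the same in both polysomal conditions, and in ΔES27Lb total mRNA HTB1 and HHT2 changed places. Most neighbours in this order were not separated: the libraries of 8 of 9 neighbouring pairs overlapped in ΔES27Lb total mRNA and those of 7 of 9 in wildtype total mRNA. The step from HTB2 down to HHO1 was free of overlap in all 4 conditions, and the step from HHO1 to HTZ1 only in ΔES27Lb polysomes.

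**Figure D1:**
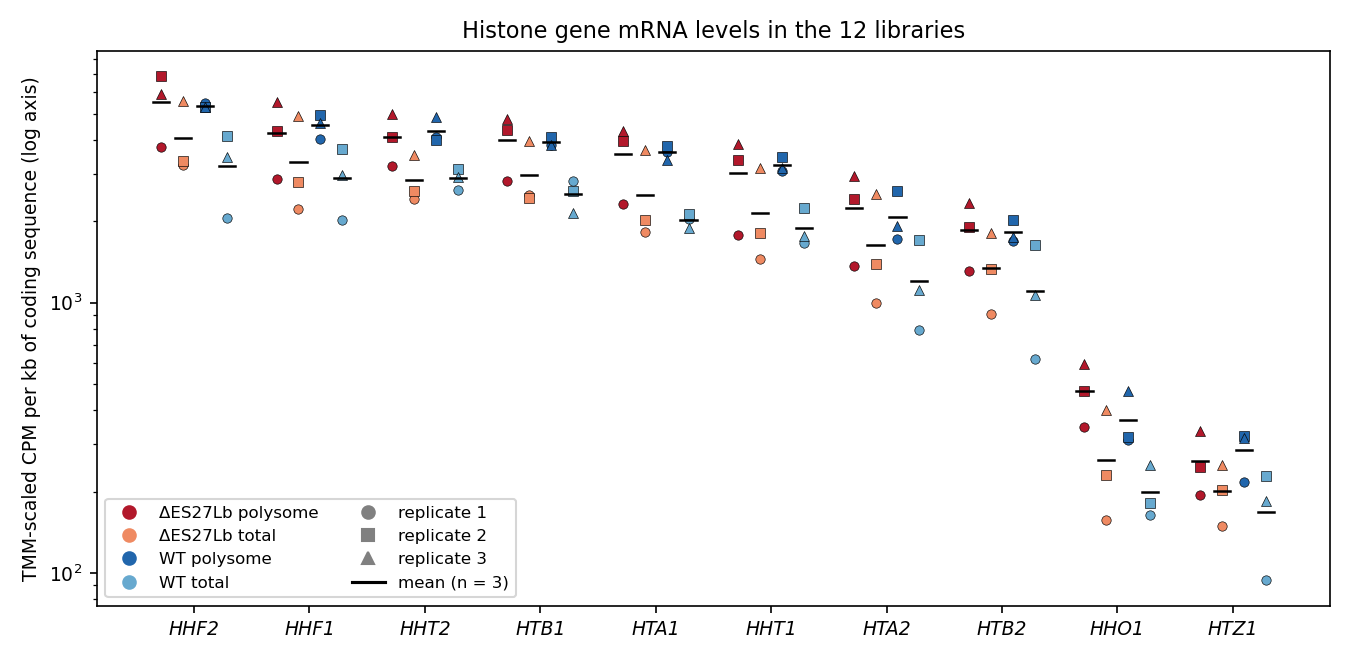
Levels of the 10 histone genes in 12 libraries, as TMM-scaled CPM per kb of coding sequence on a log axis, by condition; symbols mark replicates and bars the mean of 3. The 8 core genes lie above HHO1 and HTZ1 in every condition, and polysomal means lie above total means for each gene.

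The H2A mRNAs showed the pattern shared by most members. HTA1 had 928, 1579 and 1729 CPM in ΔES27Lb polysomes (replicates 1 to 3) and 728, 805 and 1469 CPM in ΔES27Lb total mRNA. In wildtype it had 1442, 1520.0 and 1344 CPM in polysomes and 817, 849 and 756 CPM in total mRNA. HTA2 had 545, 967 and 1177 CPM in ΔES27Lb polysomes and 399, 553 and 1005 CPM in ΔES27Lb total mRNA. Both genes were lowest in ΔES27Lb culture 1 and highest in ΔES27Lb culture 3, in each mRNA pool, so that the total library of culture 3 lay above the polysomal library of culture 1. In wildtype HTA2 had 688, 1031 and 769 CPM in polysomes and 317, 683 and 445 CPM in total mRNA, and the polysomal libraries lay above all total libraries for both genes.

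The H2B genes lie beside the H2A genes, HTB1 beside HTA1 and HTB2 beside HTA2. HTB1 had 1121, 1728 and 1895 CPM in ΔES27Lb polysomes and 995, 966 and 1574 CPM in ΔES27Lb total mRNA. In wildtype it had 1519.5, 1625 and 1514 CPM in polysomes and 1118, 1024 and 849 CPM in total mRNA, groups that did not overlap. HTB2 had 521, 754 and 926 CPM in ΔES27Lb polysomes and 358, 527 and 718 CPM in ΔES27Lb total mRNA. It had 672, 803 and 695 CPM in wildtype polysomes and 245, 649 and 423 CPM in wildtype total mRNA. Replicate 1 of wildtype total mRNA stood out here: HTB2 was at its lowest of all libraries, whereas HTB1 was at the highest of the 3 wildtype total libraries.

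For H3, HHT1 had 735, 1388 and 1596 CPM in ΔES27Lb polysomes and 596, 748 and 1299 CPM in ΔES27Lb total mRNA, against 1261, 1424 and 1297 CPM in wildtype polysomes and 684, 919.6 and 725 CPM in wildtype total mRNA. HHT2 had 1320.3, 1681 and 2055 CPM in ΔES27Lb polysomes and 997, 1063 and 1445 CPM in ΔES27Lb total mRNA, against 1681, 1641 and 1999 CPM in wildtype polysomes and 1077, 1286 and 1202 CPM in wildtype total mRNA. The polysomal and total libraries of both H3 genes did not overlap in wildtype, and in ΔES27Lb they did. For H4, HHF1 had 896, 1345 and 1726 CPM in ΔES27Lb polysomes and 693, 871 and 1535 CPM in ΔES27Lb total mRNA, against 1262, 1549 and 1447 CPM in wildtype polysomes and 629.9, 1156 and 924 CPM in wildtype total mRNA. HHF2 had 1171, 2154 and 1849 CPM in ΔES27Lb polysomes and 1007, 1044 and 1743 CPM in ΔES27Lb total mRNA, against 1707, 1659 and 1656 CPM in wildtype polysomes and 643, 1289 and 1078 CPM in wildtype total mRNA. Both H4 genes were lowest in replicate 1 of wildtype total mRNA among the 12 libraries.

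The linker histone gene HHO1 had 269, 366 and 459.6 CPM in ΔES27Lb polysomes and 122, 179 and 310.4 CPM in ΔES27Lb total mRNA, against 242, 247 and 368 CPM in wildtype polysomes and 128, 141 and 195 CPM in wildtype total mRNA. Its polysomal and total libraries overlapped in ΔES27Lb and not in wildtype. HTZ1 had 78.5, 99.5 and 136 CPM in ΔES27Lb polysomes and 60.6, 81.9 and 102 CPM in ΔES27Lb total mRNA, against 88.0, 129.7 and 128 CPM in wildtype polysomes and 38.0, 92.2 and 74.5 CPM in wildtype total mRNA. HTZ1 was the one member whose polysomal and total libraries overlapped in wildtype, where the polysomal library of culture 1 was below the total library of culture 2.

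The first comparison asked whether histone mRNAs are enriched on polysomes of each strain. In all 6 cultures each of the 10 histone genes was higher in polysomal than in total mRNA. This held for 20.5% of all genes tested. In ΔES27Lb the median log2 P/T over the 10 genes was 0.37, 0.82 and 0.28 in cultures 1 to 3, and in wildtype it was 0.96, 0.54 and 0.78. Single values ran between 0.08 (HHF2 in ΔES27Lb culture 3) and 1.45 (HTB2 in wildtype culture 1). In wildtype, 9 of the 10 genes had all polysomal libraries above all total libraries, against 14.5% of all genes tested. In ΔES27Lb this was so for 0 of 10, against 9.43% of all genes tested.

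**Figure D2:**
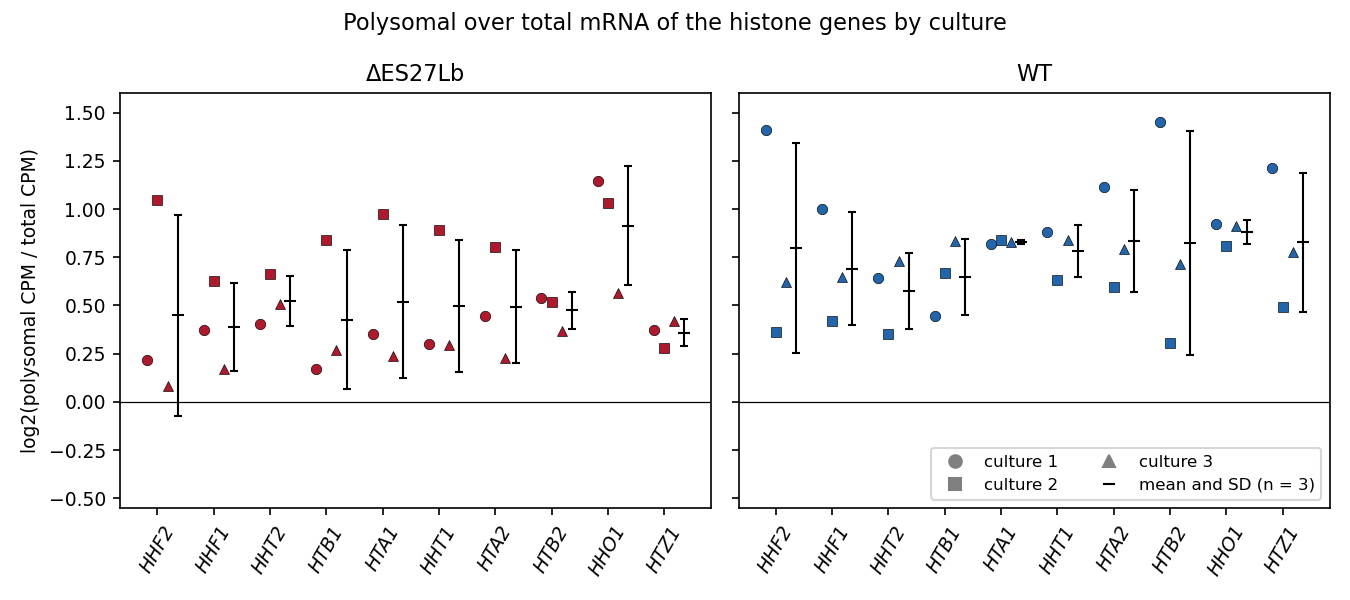
log2 ratio of polysomal to total CPM of each histone gene in the 3 cultures of ΔES27Lb (left) and wildtype (right), with mean and SD (n = 3). All 60 values lie above 0, and in wildtype the cultures lie close together for HTA1 and HHO1 and far apart for HTB2 and HHF2, where culture 1 is highest.

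In edgeR's quasi-likelihood test without a block, with Benjamini-Hochberg adjustment over all genes, P/T passed the threshold of 0.05 for 0 of the 10 genes in ΔES27Lb, where 0% of all genes did, and for 0 of 10 in wildtype, where 0.117% did. An unadjusted p of 0.05 or less was reached by 1 histone gene in ΔES27Lb, where 15% of all genes reached it, and by 7 in wildtype, where 28.5% did. The estimates were positive for all: log2 P/T in ΔES27Lb ranged between 0.36 (HHF1, SE 0.35) and 0.84 (HHO1, SE 0.35) with a median of 0.46, and in wildtype between 0.58 (HHT2, SE 0.25) and 0.88 (HHO1, SE 0.35) with a median of 0.75. DESeq2 also called 0 of the 10 in either strain. Of the 6917 genes it was run on, it called 77 in ΔES27Lb and 749 in wildtype. Its unadjusted p was 0.05 or less for 2 of the 10 in ΔES27Lb, where 1130 of all genes reached this. In wildtype it was so for 9 of the 10 and for 1896 of all genes.

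The deviations of the polysomal and the total library with the same number correlated, with r between 0.20 and 0.90. The culture was therefore also fitted as a block, which compares the pools within cultures. Libraries of the same number in different strains had r between -0.11 and 0.55. These correlations thus do not settle whether equal numbers are 1 culture, and the blocked fits rest on that pairing. With this replicate block, P/T of 1 of 10 genes rose in ΔES27Lb, where 2.88% of all genes rose, and P/T of 10 of 10 rose in wildtype, where 16.9% of all genes rose. In ΔES27Lb, HHO1 was 1.89-fold higher in polysomes (log2 0.91 ± 0.16 SE, edgeR adjusted p = 0.042). The other 9 genes had blocked estimates between 0.36 (HTZ1) and 0.52 (HHT2) there, with adjusted p between 0.078 and 0.23. In wildtype, HHO1 was 1.84-fold higher (log2 0.88 ± 0.16 SE, adjusted p = 0.012), HTZ1 1.77-fold (0.82 ± 0.17, adjusted p = 0.012), HTA2 1.78-fold (0.83 ± 0.18, adjusted p = 0.013) and HTA1 1.78-fold (0.83 ± 0.19, adjusted p = 0.014). The largest adjusted p among the 10 were those of HHT2 at 1.49-fold (0.58 ± 0.17, adjusted p = 0.030) and HHF2 at 1.74-fold (0.80 ± 0.25, adjusted p = 0.037). HHT1, HTB2, HHF1 and HTB1 lay between these in adjusted p, with log2 estimates of 0.78, 0.82, 0.69 and 0.65.

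Part of these calls was lost when a culture was left out, and all were lost when CDS length was taken into account. With the block, 6 histone genes remained past the threshold in wildtype without culture 1, 8 without culture 2 and 3 without culture 3. Of all genes, 519 of 6066, 834 of 6055 and 510 of 6042 were called higher in these wildtype fits. In ΔES27Lb 0 histone genes remained without culture 1, 2 or 3, and 0 of all genes were called higher. With the block and an offset per library for CDS length, 0 of 10 were past the threshold in either strain. Of all 5695 genes in this fit, 0 were past it in ΔES27Lb and 281 in wildtype, 155 of these higher. The offset also takes out any trend that P/T itself has with length. The median log2 P/T over the 10 genes was 0.44 in ΔES27Lb, against 0.48 with the block alone, and 0.33 in wildtype, against 0.81. In ΔES27Lb 8 of the 10 had an unadjusted edgeR p of 0.05 or less (1496 of all 5695 genes). With the block alone 6 did (2024 of 6003). In wildtype 5 did (1710 of 5695), against 10 with the block alone (2717 of 6003). The estimates for HHO1 were 0.71 ± 0.16 (SE, adjusted p = 0.057) in ΔES27Lb and 0.53 ± 0.16 (adjusted p = 0.067) in wildtype. All 10 estimates stayed positive in both strains, but so were 56.9% of all genes in either strain. The median over all genes was 0.07 in ΔES27Lb and 0.06 in wildtype with this offset. The lowest of the 10 was HHT2 in wildtype at 0.07, above 50.7% of the genes. HTB1 in wildtype was at 0.16, above 61.1% of the genes. HHO1, with the longest CDS of the 10, had a P/T above that of 99.3% of the genes in ΔES27Lb and of 93.0% in wildtype in this fit.

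**Figure D3:**
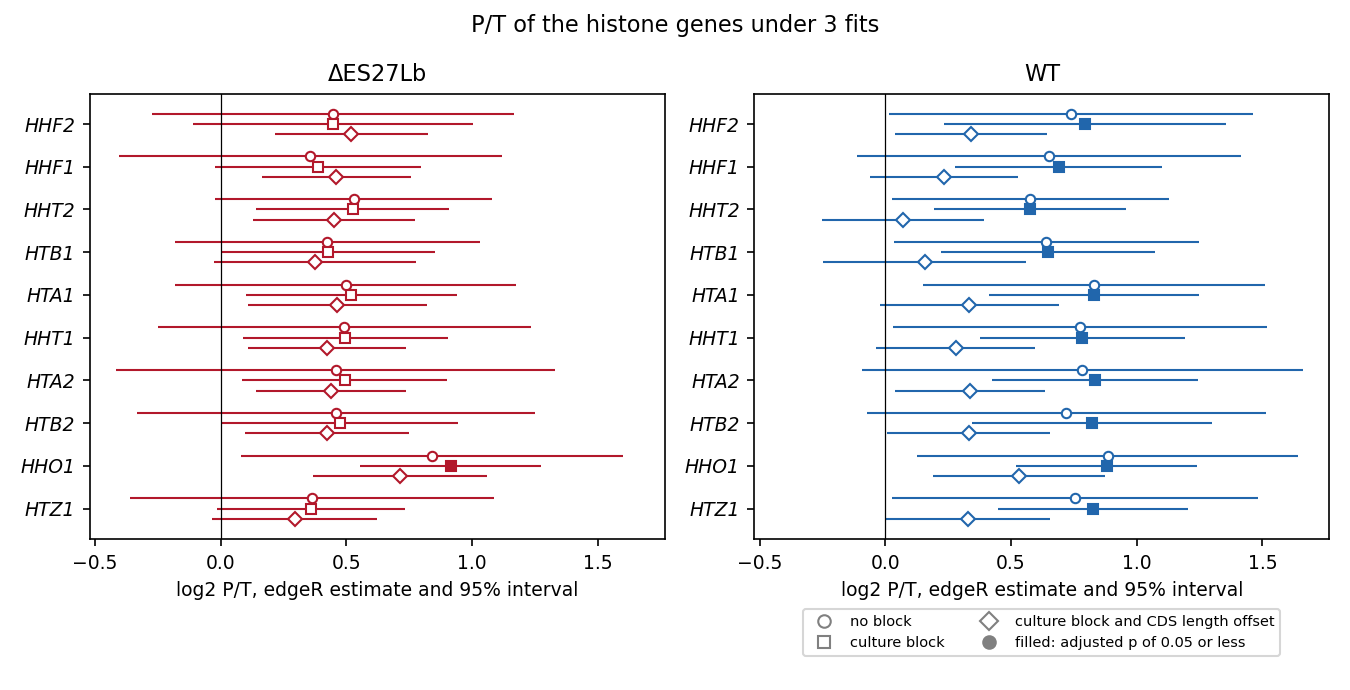
log2 P/T of the 10 histone genes in ΔES27Lb (left) and wildtype (right) from edgeR without a block, with the culture as a block and with block and CDS length offset; bars are 95% intervals and filled symbols have an adjusted p of 0.05 or less. Filled symbols stand for 1 gene (HHO1) in ΔES27Lb and all 10 in wildtype, all in the fit with the block alone.

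The interaction, P/T in ΔES27Lb minus P/T in wildtype, compares the enrichment between strains. It passed for 0 of 10 histone genes, and 0% of all genes passed (46 genes at an unadjusted p of 0.05 or less, 1 gene in DESeq2). The differences were negative for all 10, with a median of -0.29 that lay between -0.41 and -0.10 when 1 culture was left out. It was -0.10 without ΔES27Lb culture 3 and -0.17 without wildtype culture 1. The 10 differences ranged between -0.39 (HTZ1, 95% interval -1.41 to 0.63) and -0.04 (HHO1, -1.11 to 1.02). With the replicate block they lay between -0.47 (HTZ1) and 0.03 (HHO1), and 0 genes passed (187 at an unadjusted p of 0.05 or less). With block and CDS length offset, the median was 0.16 and 9 of the 10 estimates were positive, against 52.0% of all genes. The direction of the strain difference thus turned with this choice. The 95% intervals of all 10 genes included 0 in each of these fits.

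Strain differences within each pool were also below the spread between replicates. In total mRNA, ΔES27Lb against wildtype, 9 of 10 estimates were positive with a median log2 of 0.27, between -0.03 (HHT2) and 0.44 (HTA2, SE 0.40). None passed, as 0% of all genes did in edgeR (351 genes at an unadjusted p of 0.05 or less, 4 genes in DESeq2). With block and CDS length offset, 2 of 10 estimates were positive, against 50.7% of all genes. The median was then -0.08 and the range -0.39 to 0.15, so the direction in total mRNA also turned with this choice. Without ΔES27Lb replicate 3, the highest total library for each of the 10 genes, the median was -0.05, and without wildtype replicate 1 it was 0.08. In polysomal mRNA, 5 estimates were positive and 5 negative, with a median of -0.0014 and a range of -0.14 (HTZ1) to 0.35 (HHO1, SE 0.35). None passed there either, as 0% of all genes did (73 at an unadjusted p of 0.05 or less, 4 in DESeq2). For every histone gene the libraries of the strains overlapped in both pools. Of all genes tested, 8.06% had libraries that did not overlap between the strains in total mRNA and 5.61% in polysomal mRNA.

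Summed over paralogs and per kb of CDS, the levels of the mRNAs for the 4 core histones differed. These ratios depend on the division by CDS length, which is 312 nt for the H4 genes and 399 nt for the H2A genes. They were not tested. H4 mRNA was 1.71 ± 0.119 times as abundant as H2A mRNA in ΔES27Lb polysomes and 1.81 ± 0.117 times in ΔES27Lb total mRNA (SD, n = 3). In wildtype the ratio was 1.76 ± 0.137 in polysomes and 1.87 ± 0.379 in total mRNA. H3 mRNA was at 1.25 ± 0.153 times H2A in ΔES27Lb total mRNA and 1.49 ± 0.0819 times in wildtype total mRNA, and H2B mRNA at 1.08 ± 0.140 times in ΔES27Lb total mRNA and 1.13 ± 0.0751 times in wildtype total mRNA. Replicate 1 of wildtype total mRNA had the lowest H4 to H2A ratio of the 12 libraries, 1.43, against 2.04 and 2.13 in replicates 2 and 3.

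In each pair, the same paralog had more counts in all 12 libraries. HTA1 held 61.5 ± 1.8% of the H2A counts in ΔES27Lb polysomes, 61.1 ± 3.0% in ΔES27Lb total mRNA, 63.6 ± 4.1% in wildtype polysomes and 63.5 ± 8.3% in wildtype total mRNA (SD, n = 3). HTB1 held 68.3 ± 1.2%, 69.0 ± 4.4%, 68.3 ± 1.2% and 70.0 ± 10.8% of the H2B counts in the same conditions. HHT1 held less than its paralog, with 41.6 ± 5.1%, 42.0 ± 5.0%, 42.9 ± 3.6% and 39.4 ± 2.1% of the H3 counts, and so did HHF1, with 43.4 ± 4.9%, 44.4 ± 3.2%, 45.8 ± 3.0% and 47.6 ± 1.7% of the H4 counts. The shares per length are the same, since paralogs have equal CDS lengths. Between polysomal and total mRNA of a culture the shares moved by less than their spread. The mean difference over the 6 cultures of both strains was 0.30 percentage points for HTA1, -1.16 for HTB1, 1.53 for HHT1 and -1.42 for HHF1. Exact two-sided sign-flip permutation tests gave p = 0.84, 0.72, 0.28 and 0.50, and 0.84 for each after adjustment over the 4 pairs. With 6 cultures this test cannot go below 0.031 before adjustment. Between ΔES27Lb and wildtype total mRNA the differences were -2.41 points for HTA1, -1.02 for HTB1, 2.64 for HHT1 and -3.28 for HHF1 (exact two-sided permutation tests, p = 0.80, 0.90, 0.70 and 0.20, adjusted 0.90, 0.90, 0.90 and 0.80), in a design that cannot go below 0.10.

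**Figure D4:**
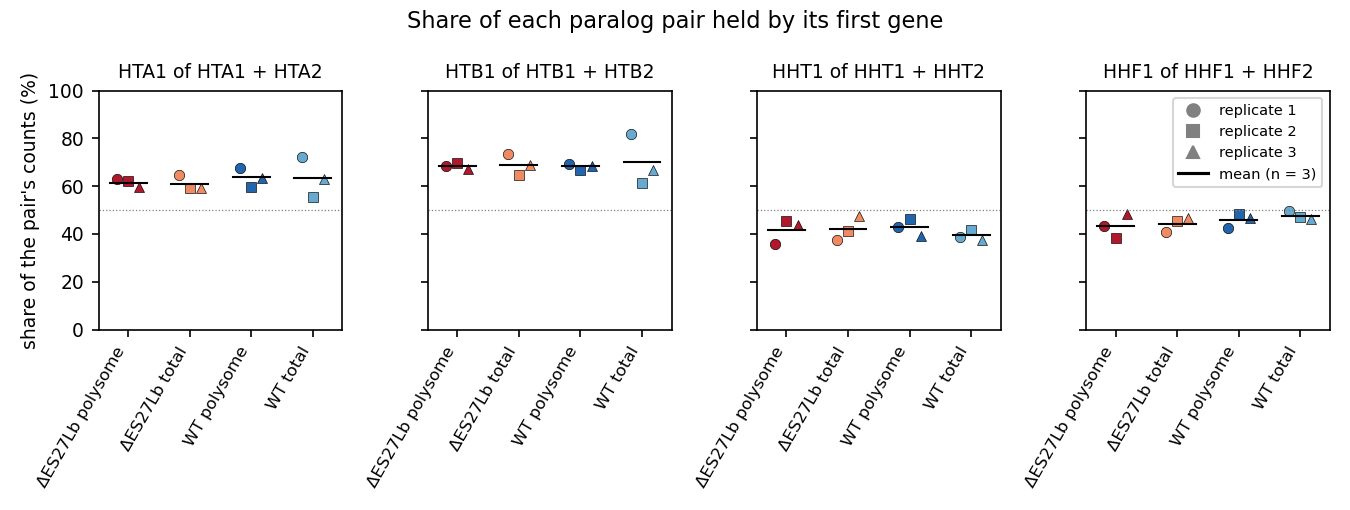
Share of each paralog pair's counts held by HTA1, HTB1, HHT1 and HHF1 in each library, by condition; symbols mark replicates and bars the mean of 3. HTA1 and HTB1 lie above 50% and HHT1 and HHF1 below it in all 12 libraries, with replicate 1 of wildtype total mRNA highest for HTA1 (72.1%) and HTB1 (82.0%).

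The ratio between divergent partners had a smaller SD than the ratio between paralogs, except at HHT2-HHF2. The log2 ratio of HTA1 to HTB1 had an SD of 0.13 over the 12 libraries, that of HTA2 to HTB2 0.16, that of HHT1 to HHF1 0.15 and that of HHT2 to HHF2 0.28. Between paralogs the SD was 0.28 for HTA1 to HTA2, 0.38 for HTB1 to HTB2, 0.22 for HHT1 to HHT2 and 0.20 for HHF1 to HHF2. The 12 libraries come from 6 cultures and share pools, so these SDs are a description. In replicate 1 of wildtype total mRNA the HTA2-HTB2 locus fell behind HTA1-HTB1: HTA1 held 72.1% and HTB1 82.0% of their pairs there, against 55.4% and 61.2% in replicate 2 and 63.0% and 66.7% in replicate 3. The next highest shares among the 12 libraries were 67.7% for HTA1, in replicate 1 of wildtype polysomes, and 73.5% for HTB1, in replicate 1 of ΔES27Lb total mRNA. In the same library the summed level of 21 genes known to peak at G1/S, such as RNR1, POL30 and CLN2, was 1360.0 CPM without TMM scaling, against 2233 and 2258 in the other wildtype total libraries and 1494 to 2401 in the other 3 conditions. The summed level of 18 genes of G2/M and M/G1 was 1775 CPM there, against 1814 and 1680 in the other wildtype total libraries. The rank correlation of deviation with CDS length was 0.42 in this library, against -0.19 and -0.28 in those 2. The part of cell cycle stage or of CDS length in these differences was not tested.

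Across the 12 libraries, the mean log2 CPM of the 8 core genes was most like that of FPR1, a peptidyl-prolyl isomerase (Pearson r = 0.98), RIM1, a mitochondrial single-stranded DNA-binding protein (0.98), MAK3, the catalytic subunit of the N-terminal acetyltransferase NatC (0.98), and EGD2 and EGD1, subunits of the nascent polypeptide-associated complex (0.97 and 0.97), among 5168 other genes whose mean log2 CPM reached 3. The histone genes were left out of this ranking, so the 5 could not include any of them. Libraries of a culture or pool are shared by all points. The r of a core gene with the mean of the other 7 was between 0.88 (HTB1) and 0.97 (HHT1), and HTZ1 and HHO1 had an r of 0.89 and 0.86 with the mean of the 8. Of the 5168 other genes, 97.0% had a lower r with the mean of the 8 than HTZ1 had, and 94.8% a lower r than HHO1 had. Likewise, 96.1% were below the r of HTB1 with the other 7 and 99.9% below that of HHT1.

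Genes that act around histone supply were read from the same fits. Without the block, 0 of them passed in P/T of either strain, and with it some rose and some fell. Of all genes tested with the block, 2.88% rose and 4.08% fell in ΔES27Lb, and 16.9% rose and 15.6% fell in wildtype. All 4 calls named for ΔES27Lb (YTA7, LSM1, TOM1 and RFA2) were lost with block and CDS length offset and without any 1 of the cultures. Of the 19 calls named for wildtype, 2 (SWC7 and RFA2) were left with block and offset, where 4 (HIR3, KAP123, SMC3 and IQG1) had estimates of the other sign, and 10 to 12 were left without 1 culture. With the replicate block, of 12 genes of histone transcription and its control, 0 rose and 1 fell in ΔES27Lb, and 0 rose and 2 fell in wildtype. YTA7, a bromodomain ATPase that acts at histone genes, fell by 0.61 on the log2 scale in ΔES27Lb (adjusted p = 0.046) and by 0.78 in wildtype (adjusted p = 0.012). With block and CDS length offset its estimates were -0.05 in ΔES27Lb and -0.06 in wildtype. HIR3, a subunit of the HIR complex that represses histone genes, fell by 0.61 in wildtype (adjusted p = 0.027). The median log2 P/T of the list was -0.06 in ΔES27Lb and -0.25 in wildtype, with -0.06 and -0.04 over all genes in the same fit.

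Of 16 genes for histone chaperones, assembly, acetylation and import, 0 passed in ΔES27Lb, and 3 rose and 1 fell in wildtype. CHZ1, the chaperone of H2A.Z-H2B, rose by 0.87 (adjusted p = 0.012), VPS75, a chaperone that works with the acetyltransferase Rtt109, by 0.66 (adjusted p = 0.019) and HIF1, a chaperone bound to the Hat1 complex, by 0.57 (adjusted p = 0.022). KAP123, an importin that carries H3 and H4, fell by 0.47 (adjusted p = 0.041). The median of the list was 0.28 in ΔES27Lb and 0.20 in wildtype. Of 13 SWR1 complex genes, whose complex places H2A.Z into nucleosomes, 0 passed in ΔES27Lb and 2 fell in wildtype: SWR1, the ATPase, by 0.97 (adjusted p = 0.012) and SWC7 by 1.51 (adjusted p = 0.035). With block and CDS length offset the wildtype estimates were -0.21 for SWR1 and -1.99 for SWC7. With the block alone, SWC7 did not pass without wildtype culture 1, 2 or 3 (edgeR adjusted p = 0.095, 0.23 and 0.061). SWR1 passed in each of these fits.

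Of 7 genes for histone mRNA turnover and removal of surplus histones, 1 rose and 1 fell in each strain. LSM1, part of the decapping activator of cytoplasmic mRNA decay, rose by 0.60 in ΔES27Lb (adjusted p = 0.047) and by 0.82 in wildtype (adjusted p = 0.012). TOM1, a ubiquitin ligase for surplus histones, fell by 1.13 in ΔES27Lb (adjusted p = 0.042) and by 1.31 in wildtype (adjusted p = 0.012). With block and CDS length offset the estimate of TOM1 was -0.10 in either strain. That of LSM1 was 0.44 in ΔES27Lb and 0.32 in wildtype. Of the 21 G1/S genes, 1 rose in ΔES27Lb, and 4 rose and 1 fell in wildtype. RFA2, a subunit of the single-strand binding factor RPA, rose by 0.65 in ΔES27Lb (adjusted p = 0.048) and by 0.92 in wildtype (adjusted p = 0.012). POL30, the sliding clamp PCNA, rose by 0.88 (adjusted p = 0.012) and CDC21, thymidylate synthase, by 0.65 (adjusted p = 0.017) in wildtype, whereas SMC3, a cohesin subunit, fell by 0.51 (adjusted p = 0.037). Of 18 genes of G2/M and M/G1, 0 passed in ΔES27Lb, and in wildtype MOB1, a kinase activator of mitotic exit, rose by 0.58 (adjusted p = 0.037) and 3 genes fell: EGT2 by 0.79, CTS1, a chitinase, by 0.87 and IQG1, which acts in cytokinesis, by 0.69 (adjusted p = 0.013, 0.019 and 0.031). CSE4, the H3 variant of centromeres, rose by 0.54 in wildtype (adjusted p = 0.021) and had an estimate of 0.45 in ΔES27Lb that did not pass. In the other 3 comparisons 0 genes of these lists passed with or without the block.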

How the data were processed

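Poly(A) RNA of 12 libraries was sequenced by the authors, aligned with HISAT2 to BY4742 and assigned to genes with featureCounts; the submitters' processing notes also name FastQC. The authors deposited raw counts, 1 value per gene and library, without normalization. Versions, annotation, strand setting and the treatment of reads with several matches are not given in the sources used here. Libraries were grouped by their labels. Whether replicates are separate cultures is not stated, so p-values measure the spread between these samples. Within a strain, the polysomal and the total library of one number were taken as a culture: their deviations from the group means over 5155 genes correlated with r of 0.50, 0.20 and 0.72 in ΔES27Lb and 0.41, 0.68 and 0.90 in wildtype, all above 0.1.

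Counts were tested in R 4.3.3 with edgeR 4.0.16 (quasi-likelihood test, TMM, default filter, 6003 genes, 1 mean per condition and no block, Benjamini-Hochberg adjustment, threshold 0.05). Depth was 15050764 to 21532842 counts per library, for which 3 counts are 0.139 to 0.199 CPM without TMM scaling; this floor covers counting error only. Alternatives were a replicate block (the culture for P/T, the replicate number within a pool between strains), CDS length offsets (loess, span 0.5, 5695 genes), DESeq2 1.42.0, its size factors in edgeR, other filters, a fit of only the libraries compared and leaving out each culture. Leaving out cultures under the block was chosen after seeing the data. Gene names, CDS lengths and sequences came from RefSeq's R64 (S288C), matched by systematic name for 6048 IDs, and were read with Biopython 1.88. No coordinates are given, since the reads were aligned to another strain. Named are all 10 histone genes, up to 3 genes per list and direction with the smallest adjusted p, in the test without a block or, where that calls none of a list, with it, and the 5 genes with the most similar profile. The mating type genes served only to check the labels. The histone genes and the lists were chosen with earlier results of these data known.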

Additional observations from a re-analysis of the deposited data

How the results depend on the processing

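With 3 replicates per condition, the spread between replicates limits these comparisons, while counting error is small at this depth. The replicate block raised the calls in P/T of wildtype to 1950 genes and 10 histone genes, against 7 and 0 without it, and in ΔES27Lb to 418 genes and 1 histone gene, against 0 and 0. With the block, calls in wildtype were 872, 1441 and 948 genes and 6, 8 and 3 histone genes without culture 1, 2 or 3, and in ΔES27Lb 2 genes were called without culture 1 and 0 without culture 2 or 3. With block and CDS length offset 281 genes were called in wildtype and 0 in ΔES27Lb, and with the offset alone 0 in wildtype. DESeq2 called 749 genes in P/T of wildtype, 77 in ΔES27Lb, 1 in the difference between strains, 4 in total and 4 in polysomal mRNA. A fit of only the libraries compared called 3 in wildtype, and for the difference between strains it is the same as the fit to all libraries. Leaving out 1 culture without a block gave 0 to 5 calls in wildtype and 0 to 7 in ΔES27Lb.

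The median log2 P/T of the histone genes in wildtype was 0.30 with the offset alone and 0.33 with block and offset, against 0.75, and the median difference between strains was 0.14 and 0.16, against -0.29. With the offset alone, the difference between strains turned to 0.20 for HHF1, 0.19 for HHF2, 0.10 for HHO1, 0.14 for HHT1, 0.39 for HHT2, 0.14 for HTA1, 0.054 for HTA2, 0.28 for HTB1 and 0.093 for HTB2. With block and offset it turned to 0.23 for HHF1, 0.18 for HHF2, 0.18 for HHO1, 0.14 for HHT1, 0.38 for HHT2, 0.13 for HTA1, 0.10 for HTA2, 0.22 for HTB1 and 0.092 for HTB2, and with the block alone to 0.034 for HHO1. Without 1 culture it ranged from -0.13 to 0.21 for HHO1 and from -0.16 to 0.034 for HHT2.

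In total mRNA, block and offset turned the strain difference to -0.24 for HHF1, -0.045 for HHF2, -0.24 for HHT1, -0.12 for HTA1, -0.14 for HTB1, -0.021 for HTB2 and -0.037 for HTZ1. Without 1 culture it ranged from -0.22 to 0.42 for HHF1, -0.061 to 0.66 for HHO1, -0.22 to 0.40 for HHT1, -0.23 to 0.080 for HHT2, -0.094 to 0.50 for HTA1, -0.029 to 0.78 for HTA2, -0.042 to 0.37 for HTB1, -0.019 to 0.68 for HTB2 and -0.056 to 0.53 for HTZ1. In polysomal mRNA, the block turned it to -0.0015 for HHF2, -0.0081 for HTB1 and -0.015 for HTB2, and block and offset to 0.012 for HTA1. Without 1 culture it ranged there from -0.34 to 0.11 for HHF1, -0.15 to 0.26 for HHF2, -0.33 to 0.17 for HHT1, -0.24 to 0.074 for HHT2, -0.20 to 0.20 for HTA1, -0.14 to 0.37 for HTA2, -0.12 to 0.22 for HTB1, -0.18 to 0.22 for HTB2 and -0.37 to 0.033 for HTZ1.

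Between pools the paralog share difference ranged, without 1 culture, from -0.47 to 1.23 percentage points for HTA1 and from -2.54 to 1.14 for HTB1, and between strains from -6.44 to 1.88 for HTA1, -5.40 to 4.99 for HTB1 and -0.019 to 4.95 for HHT1. The replicate block changed no other call of the histone genes. Between strains, libraries of the same number correlated in total mRNA (r of 0.19, 0.39 and 0.43) and not throughout in polysomal mRNA (r between -0.11 and 0.55), and with the number within a pool as block 0 genes were called in either. No histone gene changed direction in P/T of either strain under any alternative. The causes of these shifts were not tested.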
